A study of Mus musculus with 15 samples.

Results

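The glycolysis and hypoxia genes are 39 listed mouse genes, found by their symbols in a table of 16886 genes measured by RNA sequencing in cultured bone macrophages. They comprise 6 genes of glucose entry, 9 of upper glycolysis, 8 of lower glycolysis, 6 of pyruvate and lactate handling, 6 other targets of hypoxia-inducible factor (HIF) and 4 of oxygen sensing. All 39 were among the 12198 genes that passed the filter on low counts, and Eno1b passed it through VLDLR_KO libraries alone. The list was drawn up by gene function, with earlier results of these data known.

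The macrophages came from the bone of VLDLR_KO, ROBO4_KO and WT mice of the strain C57BL6J, with 5 libraries of total RNA per genotype. VLDLR is the very low density lipoprotein receptor and ROBO4 is a roundabout guidance receptor known from vascular endothelium. All cultures, WT included, received M-CSF, the growth factor that drives macrophage differentiation, at 20 ng/ml for 14 days. No other treatment, animal age or sex was given in the labels, nor how the knockout alleles were made. The code of every library carries a digit either before or after a letter B. Digit before B was found in VLDLR_KO replicates 1 and 2, ROBO4_KO replicates 1 and 2 and WT replicates 3 to 5. Digit after B was found in VLDLR_KO replicates 3 to 5, ROBO4_KO replicates 3 to 5 and WT replicates 1 and 2. What the code form stands for was not stated, so genotypes were compared within it and as the mean of both within-form differences. Nothing in the labels says that replicates came from separate animals or cultures, so p-values measure the spread between these libraries, which may be technical.

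Glycolysis takes up glucose through membrane transporters, traps it by phosphorylation and splits it to pyruvate, with a small yield of ATP and without oxygen. Pyruvate is then either reduced to lactate and exported or passed into mitochondria. When oxygen is low, HIF1A escapes the prolyl hydroxylases that mark it for destruction, pairs with ARNT and raises transcription of transporters, glycolytic enzymes, Ldha, Pdk1 and its own negative regulators. Macrophages are known to raise glycolysis on inflammatory activation.

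The HIF1A and ARNT pair is known to bind the letters ACGTG or GCGTG. Windows of 250 bases before the transcription start (RefSeq, GRCm38.p6) were found for 36 of the 39 members, which had 49 windows in all. ACGTG or GCGTG, on either strand, occurred in 41 of these 49 windows (83.7%), against 12679 of 32851 windows of all genes (38.6%). On the opposite strand the letters read CACGT or CACGC, and an ACGTG can overlap a CACGT. A match is only a description of the letters, and base composition was not matched between members and all genes. Below are the windows of 4 of the members called higher before B than after B and of Pdk1, which was called lower. Each is written 5′ to 3′ on the strand of its gene with the matches in capitals. They lie at chr2:27027999-27028248 (minus strand) for Slc2a6, chr11:78322823-78323072 (plus) for Aldoc, chr11:54100674-54100923 (plus) for P4ha2, chr12:54203875-54204124 (minus) for Egln3 and chr2:71872974-71873223 (plus) for Pdk1. Slc2a6 held 4 matches and P4ha2 held 3, while Aldoc, Egln3 and Pdk1 held 1 each. The code-form difference of Slc2a6 is a mean over genotypes that differ, with high levels in the before-B VLDLR_KO libraries alone. Ankrd37 and Eno3, not shown, had a larger code-form difference than Aldoc. Aldoc and Pdk1 have another window each, with 1 and 0 matches in that order, and the window listed first in the RefSeq table is shown.
Slc2a6: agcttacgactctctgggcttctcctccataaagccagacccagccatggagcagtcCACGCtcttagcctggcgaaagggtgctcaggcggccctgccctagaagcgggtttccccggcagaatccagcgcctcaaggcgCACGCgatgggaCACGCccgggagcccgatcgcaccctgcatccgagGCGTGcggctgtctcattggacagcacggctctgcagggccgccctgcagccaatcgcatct
Aldoc: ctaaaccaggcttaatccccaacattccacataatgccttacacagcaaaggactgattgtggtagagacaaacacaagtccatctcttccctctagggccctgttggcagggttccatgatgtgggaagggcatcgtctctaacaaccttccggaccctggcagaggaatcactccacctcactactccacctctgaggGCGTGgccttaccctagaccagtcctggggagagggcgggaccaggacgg
P4ha2: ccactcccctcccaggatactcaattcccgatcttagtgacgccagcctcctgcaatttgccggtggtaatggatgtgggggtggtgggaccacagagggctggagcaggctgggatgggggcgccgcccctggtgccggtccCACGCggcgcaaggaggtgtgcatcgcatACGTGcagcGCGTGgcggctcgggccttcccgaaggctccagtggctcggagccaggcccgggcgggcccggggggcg
Egln3: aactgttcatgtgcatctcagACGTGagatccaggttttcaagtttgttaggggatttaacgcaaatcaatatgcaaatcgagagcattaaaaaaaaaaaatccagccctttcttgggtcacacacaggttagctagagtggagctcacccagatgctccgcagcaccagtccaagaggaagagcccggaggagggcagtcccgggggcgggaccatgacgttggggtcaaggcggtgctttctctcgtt
Pdk1: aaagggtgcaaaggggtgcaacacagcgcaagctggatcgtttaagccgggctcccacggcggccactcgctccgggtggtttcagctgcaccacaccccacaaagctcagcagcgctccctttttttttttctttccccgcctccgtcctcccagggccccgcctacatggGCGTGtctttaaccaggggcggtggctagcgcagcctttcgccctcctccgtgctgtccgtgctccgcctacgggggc

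Libraries held 18132866 to 19005966 estimated counts. Vldlr had 1 to 9 counts per library in VLDLR_KO, 2 to 38 in ROBO4_KO and 5 to 36 in WT, and Robo4 had at most 4 counts anywhere and 0 in all ROBO4_KO libraries, so neither gene can check the labels. All 15 macrophage markers were detected in every library, among them Csf1r at 1134 to 2503 CPM, Adgre1 at 743 to 1169 CPM and Cd68 at 1526 to 3242 CPM. CPM here is the count scaled to the library total after TMM normalization. The summed T and NK cell markers, of which 3 of 7 were measured, stayed at or under 0.0570 CPM and the erythroid ones at or under 0.285 CPM. Endothelial, adipocyte and mast cell lists had more, mostly from Vwf (67.2 to 206 CPM), Fabp4 (198 to 631 CPM) and Kit (0.558 to 37.1 CPM) in that order. Kdr of the endothelial list reached 58.1 CPM. The remaining genes of these lists were low, with Pecam1 at most 1.31 CPM and Adipoq at most 0.335 CPM. VLDLR_KO replicate 2 stood apart: its deposited FPKM values summed to 676957, against 532163 to 589384 in the other libraries. Both WT after-B libraries had high Fos, an immediate-early gene, at 856 and 944 CPM, against 41.9 to 56.2 CPM in the knockout libraries of that form and 12.5 to 42.2 CPM in all before-B libraries. In bulk RNA, fewer cells of a type and less RNA per cell cannot be told apart.

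Per length, the members spanned a wide range. Gapdh had the highest median FPKM over the 15 libraries (1422), followed by Aldoa (866), Pkm (650.2) and Pgam1 (320.4). Hk3 (202 FPKM) was the most abundant hexokinase, above Hk1 (22.6) and Hk2 (11.4), and Pfkp (34.7 FPKM) stood above Pfkl (10.2) and Pfkm (4.78). Slc2a1 (22.7 FPKM) stood above Slc2a6 (3.40) and Slc2a3 (1.38). These orders did not hold in every library: in VLDLR_KO replicate 2 Slc2a6 (28.95 FPKM) exceeded Slc2a1 (23.76 FPKM) and Pfkl (24.34 FPKM) exceeded Pfkp (19.47 FPKM). Egln3 was low, with a median of 0.24 FPKM and a range of 0.06 to 0.75 FPKM. The ranges of Pgam1, Pgk1 and Ldha over libraries overlapped, so their order was not settled.

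VLDLR_KO macrophages differed from WT in both directions across these genes. As the mean of both code forms, 16 of 39 members passed an adjusted p under 0.05 for VLDLR_KO minus WT, with 8 higher and 8 lower, against 26.0% of all 12198 genes (12.4% higher and 13.6% lower). Slc2a6, Pfkl, Ldhb, Slc16a1, Slc16a3, P4ha1, Slc2a1 and Eno1b rose, and Ndrg1, Aldoc, P4ha2, Pdk1, Eno1, Eno2, Pfkp and Hk3 fell. The median log2 fold change of the 39 members was 0.08, against 0.01 over all tested genes. The call of Eno1b follows from how it passed the filter and adds no support to these counts. The fall of Eno1 holds for Eno1 counted apart from Eno1b, and their sum was higher in VLDLR_KO by 0.42 (SE 0.10, adjusted p = 0.00645). Among before-B libraries 12 members passed, with 5 higher and 7 lower, beside 33.2% of all genes (17.6% higher, 15.6% lower). Within after-B libraries 9 differed, with 5 higher and 4 lower, beside 13.4% of all genes (5.94% higher, 7.43% lower). Only Eno1b, Eno1 and Aldoc were called in both forms taken alone. Of the 16 calls on the mean, 11 were kept in all 15 fits that left out 1 library, and Slc2a1, Eno2, Ldhb, Slc16a1 and P4ha2 were lost in at least 1. With the code form ignored, 3 members were called. VLDLR_KO before B, ROBO4_KO before B and WT after B have 2 libraries each, so a fit without 1 of them leaves a single library that is assumed to vary like the other groups. After B the count was 3 without VLDLR_KO replicate 3 and 5 without VLDLR_KO replicate 5, and Ndrg1 and Eno1b alone were kept in all 15 fits. The share of all genes called in those fits is not given here. These counts therefore do not show whether members varied more than other genes. The after-B comparison with WT uses the pair of WT libraries with high Fos, and the before-B one does not.

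Markers of cell identity moved with genotype as well. Summed macrophage markers were 33921 to 43450 CPM in VLDLR_KO and 14007 to 16547 CPM in WT before B, and 20698 to 23148 CPM in VLDLR_KO and 19229 to 19807 CPM in WT after B. Lyz2 alone ran from 4975 to 26384 CPM over the 15 libraries, above every other marker of that list. Of the 15 macrophage markers 5 were higher and 4 lower on the mean, beside 12.4% higher and 13.6% lower of all genes. Summed dendritic cell markers were 747 to 954 CPM in VLDLR_KO and 68.1 to 109 CPM in WT before B, and 1369 to 2365 CPM in VLDLR_KO and 719 to 840.2 CPM in WT after B. Nearly all of that sum was Itgax (67.2 to 2364 CPM over the 15 libraries), which macrophages also express, while the other 7 markers reached at most 1.11 CPM, with Flt3 at 0 in 11 libraries, Ccr7 at 0 in 12 and Siglech at 0 in 14. Of 4 dendritic cell markers tested 2 were higher and 1 lower on the mean, beside the same shares of all genes. Their part in the members' differences was not tested.

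**Figure D1:**
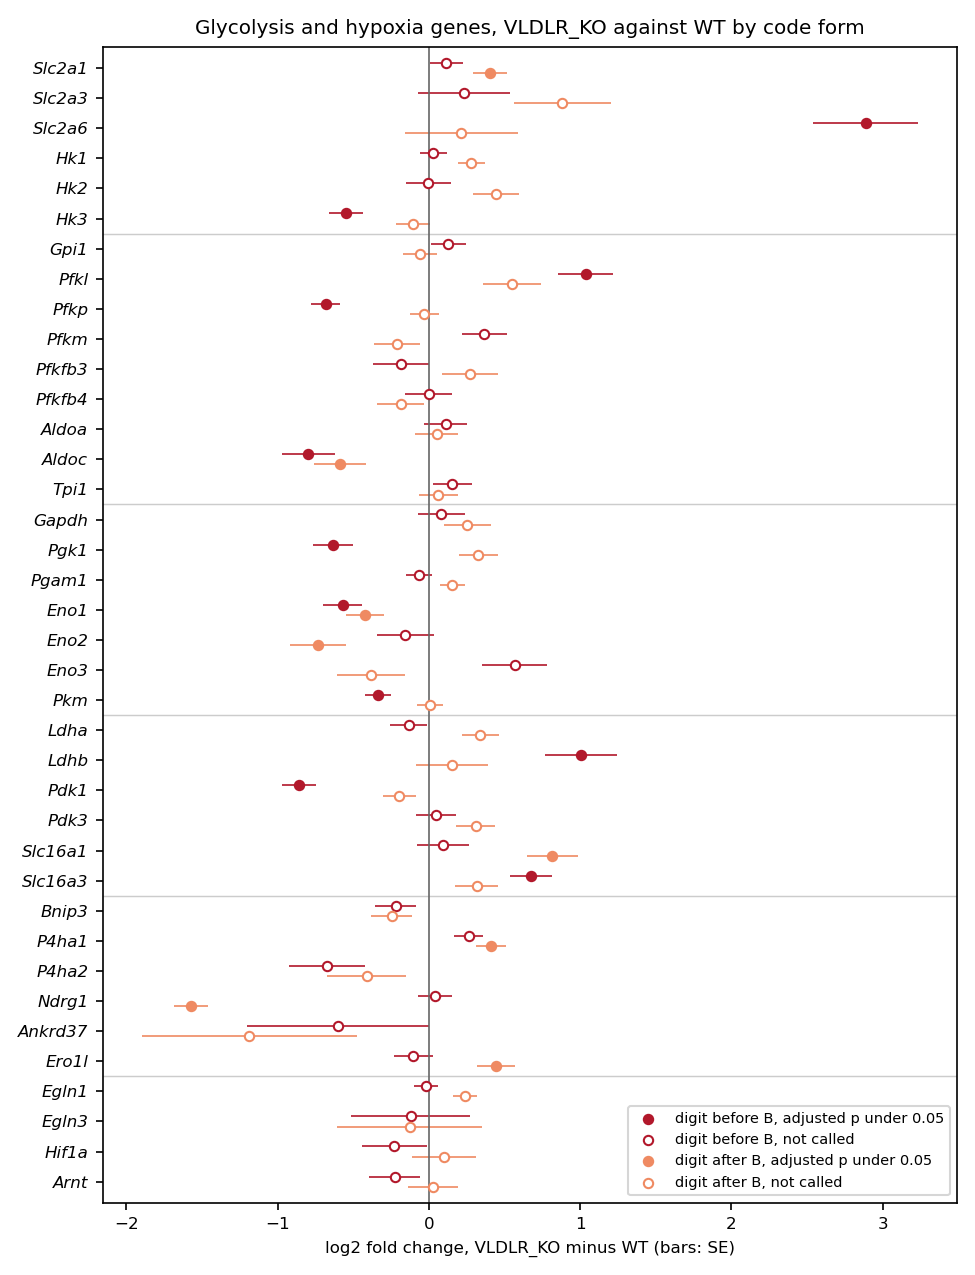
Log2 fold change of VLDLR_KO minus WT (x axis, bars are standard errors) for 38 members from glucose entry at the top to oxygen sensing at the bottom, in before-B libraries (dark) and after-B libraries (light), filled where the adjusted p was under 0.05. Eno1b is not drawn because WT had no counts. Slc2a6 stands farthest right in before-B libraries at 2.89 and Ndrg1 farthest left in after-B libraries at -1.57.

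Glucose entry was led by Slc2a6, a facilitative hexose transporter of leukocytes and brain (chromosome 2, 27021363 to 27027998, GRCm38.p6). In before-B libraries Slc2a6 had 41.4 and 61.9 CPM in VLDLR_KO, 7.09 and 9.40 CPM in ROBO4_KO and 6.89, 5.12 and 8.88 CPM in WT. In after-B libraries it had 3.34, 9.26 and 6.53 CPM in VLDLR_KO, 6.90, 4.38 and 4.20 CPM in ROBO4_KO and 5.20 and 5.76 CPM in WT. Both before-B VLDLR_KO libraries thus lay above all 13 others, and the after-B VLDLR_KO libraries overlapped WT. The log2 fold change against WT was 2.89 (SE 0.35, adjusted p = 7.48e-05) before B and 0.22 (SE 0.37, adjusted p = 0.761) after B. Its promoter window, printed above, had the most ACGTG or GCGTG matches of the 5 shown. Windows not shown held as many or more, with 5 in Bnip3 and the first of Ldha, and 4 in Ankrd37, Pdk3 and Slc16a1. Whether the matches bear on the level of Slc2a6 was not tested.

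Slc2a1, the main glucose transporter of most cells, was called after B alone, although its VLDLR_KO difference did not pass a test of dependence on the code form. Before B it had 57.7 and 62.0 CPM in VLDLR_KO, 50.8 and 52.5 CPM in ROBO4_KO and 57.6, 57.4 and 50.6 CPM in WT. After B it had 63.9, 72.5 and 63.4 CPM in VLDLR_KO, 49.9, 41.6 and 45.0 CPM in ROBO4_KO and 46.3 and 54.4 CPM in WT. The after-B groups of VLDLR_KO and WT did not overlap, and the log2 fold change there was 0.40 (SE 0.11, adjusted p = 0.0291), against 0.12 (SE 0.11, adjusted p = 0.427) before B. The after-B call of Slc2a1 was lost without WT replicate 1 or 2 or without VLDLR_KO replicate 3, 4 or 5, with values of 0.29 to 0.52. Slc2a3, a high-affinity transporter, had log2 fold changes of 0.23 and 0.88 before and after B and was called in neither.

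Hexokinases phosphorylate glucose as it enters. Hk2, the HIF-inducible one, had 64.0 and 54.2 CPM in VLDLR_KO, 59.9 and 50.9 CPM in ROBO4_KO and 62.8, 60.2 and 54.7 CPM in WT before B. After B Hk2 had 89.1, 67.0 and 73.3 CPM in VLDLR_KO, 41.7, 38.0 and 40.0 CPM in ROBO4_KO and 47.6 and 64.7 CPM in WT. The after-B VLDLR_KO libraries were all above the others, yet Hk2 was not called against WT (log2 fold change 0.44, SE 0.15, adjusted p = 0.0686) and was called against ROBO4_KO (0.94, SE 0.13, adjusted p = 0.000475). Hk3, a hexokinase of myeloid cells, fell by 0.54 on the log2 scale in VLDLR_KO before B (SE 0.11, adjusted p = 0.00364) and differed by -0.11 after B (adjusted p = 0.588). Hk1 was called against WT in neither form.

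In upper glycolysis the 3 phosphofructokinase subunit genes did not move together. Pfkl, the liver-type subunit (chromosome 10, 77986947 to 78009796), had 59.2 and 81.9 CPM in VLDLR_KO, 32.9 and 41.2 CPM in ROBO4_KO and 38.5, 31.5 and 33.0 CPM in WT before B. After B Pfkl had 47.7, 31.1 and 38.7 CPM in VLDLR_KO, 26.7, 28.5 and 32.7 CPM in ROBO4_KO and 28.2 and 25.2 CPM in WT. VLDLR_KO exceeded WT in both forms without overlap, and Pfkl rose by a log2 fold change of 1.04 before B (SE 0.18, adjusted p = 0.00132), with 0.55 after B (SE 0.19, adjusted p = 0.0743) and 0.79 on the mean (SE 0.13, adjusted p = 0.000862).

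Pfkp, the platelet-type subunit (chromosome 13, 6579874 to 6648792), went the other way before B. It had 76.7 and 63.6 CPM in VLDLR_KO, 111 and 120.2 CPM in ROBO4_KO and 114, 118 and 106 CPM in WT before B. After B it had 110.3, 114 and 101 CPM in VLDLR_KO, 116, 116 and 118 CPM in ROBO4_KO and 109 and 112 CPM in WT. Both before-B VLDLR_KO libraries were the lowest of all 15, and the after-B groups of VLDLR_KO and WT overlapped. Pfkp fell by 0.68 before B (SE 0.10, adjusted p = 0.000297) and differed by -0.03 after B (adjusted p = 0.870), both on the log2 scale. The muscle-type Pfkm was not called in either form.

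Pfkfb3 makes fructose 2,6-bisphosphate, the activator of phosphofructokinase. It had 55.9 and 36.3 CPM in VLDLR_KO, 46.9 and 39.6 CPM in ROBO4_KO and 60.4, 49.4 and 47.5 CPM in WT before B. After B it had 76.7, 67.3 and 65.1 CPM in VLDLR_KO, 50.8, 48.0 and 40.6 CPM in ROBO4_KO and 49.7 and 65.6 CPM in WT. VLDLR_KO and WT overlapped in both forms and Pfkfb3 was not called against WT, with log2 fold changes of -0.19 and 0.27 before and after B. Pfkfb4, Gpi1, Aldoa and Tpi1 were not called against WT in either form, with log2 fold changes between -0.18 and 0.16.

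Aldolase C, a minor isoform best known from brain, was lower in VLDLR_KO in both forms. Aldoc (chromosome 11, 78323073 to 78327781) had 13.6 and 13.0 CPM in VLDLR_KO, 38.3 and 27.7 CPM in ROBO4_KO and 23.2, 20.2 and 26.0 CPM in WT before B. After B Aldoc had 11.1, 9.81 and 10.1 CPM in VLDLR_KO, 21.5, 16.9 and 17.3 CPM in ROBO4_KO and 17.4 and 13.6 CPM in WT. VLDLR_KO lay below both other genotypes in each form without overlap. Aldoc fell by 0.80 before B (SE 0.17, adjusted p = 0.00492), by 0.59 after B (SE 0.17, adjusted p = 0.0395) and by 0.69 on the mean (SE 0.12, adjusted p = 0.00133), all on the log2 scale. The after-B call was lost in 7 of the 15 fits that left out 1 library (WT replicate 1, 2 or 3, ROBO4_KO replicate 4, VLDLR_KO replicate 3, 4 or 5), with values of -0.75 to -0.40. Aldoa, the abundant isoform, ran from 1005 to 1483 CPM and was not called.

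Enolase gave the largest contrast, and it concerned a near-identical copy. Eno1b, an enolase 1 copy on chromosome 18, had 218 and 334 CPM in before-B VLDLR_KO libraries and 280.4, 262 and 276 CPM in after-B ones. All 10 ROBO4_KO and WT libraries had 0 counts of Eno1b. The VLDLR_KO mean of 274 ± 41.6 CPM (SD, n = 5) was at least 1642-fold higher than in ROBO4_KO and at least 1601-fold higher than in WT, against a floor of 3 counts per library. Eno1 (chromosome 4, 150236726 to 150248873) had 240.0 and 338 CPM in VLDLR_KO, 392 and 466 CPM in ROBO4_KO and 434, 408 and 446 CPM in WT before B. After B Eno1 had 345, 318 and 332 CPM in VLDLR_KO, 489, 494 and 505 CPM in ROBO4_KO and 463 and 425 CPM in WT.

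Taken alone, Eno1 was below every other library in VLDLR_KO and fell by 0.50 on the log2 scale on the mean (SE 0.09, adjusted p = 0.00159). Eno1b took 44.8% to 49.7% of the summed counts in the 5 VLDLR_KO libraries. The sum of Eno1 and Eno1b was 458 and 672 CPM in before-B VLDLR_KO libraries and 626, 579 and 608 CPM in after-B ones. With no Eno1b elsewhere, the ROBO4_KO and WT sums equal their Eno1 values. The summed log2 fold change against WT was 0.40 before B (SE 0.13, adjusted p = 0.0374), 0.44 after B (SE 0.14, adjusted p = 0.0471) and 0.42 on the mean (SE 0.10, adjusted p = 0.00645). The direction of Eno1 thus turns with the treatment of its copy, and how reads were divided between the copies was not tested.

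**Figure D2:**
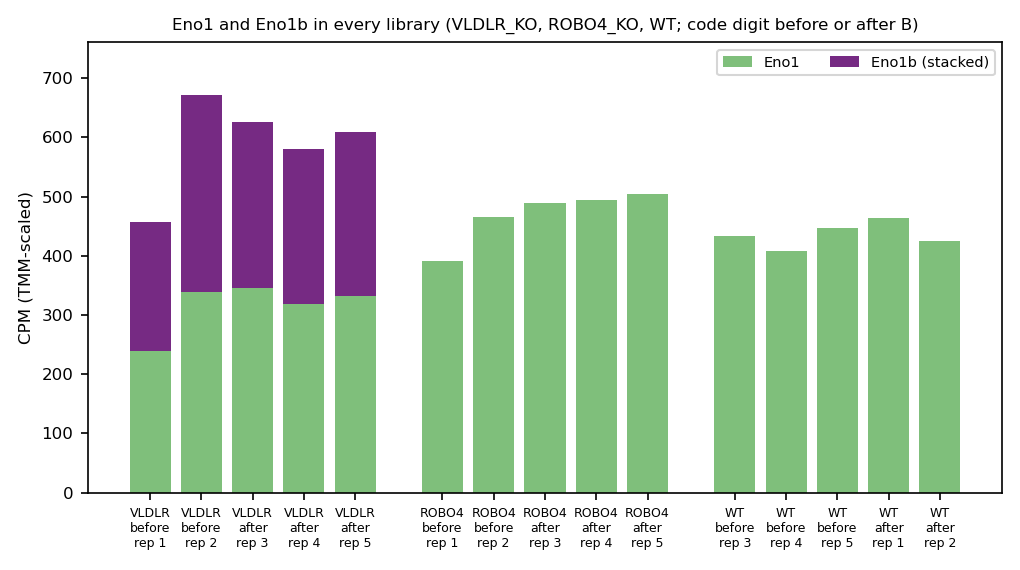
CPM (TMM-scaled) of Eno1 (green) and Eno1b (purple, stacked on top) in each of the 15 libraries, with VLDLR_KO at the left, ROBO4_KO in the middle and WT at the right, and the code form under each bar. Purple is present in the 5 VLDLR_KO libraries, at 218 to 334 CPM, and absent from the other 10.

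Gapdh, the enzyme often used as a reference transcript, had 1440.1 and 2146 CPM in VLDLR_KO, 1471 and 1604 CPM in ROBO4_KO and 1679, 1603 and 1804 CPM in WT before B. After B Gapdh had 1977, 1861 and 2181 CPM in VLDLR_KO, 1597, 1874 and 1986 CPM in ROBO4_KO and 1827 and 1537 CPM in WT. The before-B VLDLR_KO libraries lay on both sides of WT, and the after-B ones lay just above it, so Gapdh was called in neither form (log2 fold change 0.08 and 0.25). Pgam1, phosphoglycerate mutase, was likewise not called. Members of this group such as Gapdh, Pgk1, Pgam1, Ldha, Aldoa and Tpi1 have processed copies in the mouse genome, and counts shared with those were not checked.

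Pgk1, phosphoglycerate kinase, an X-linked enzyme that yields ATP (chromosome X, 106187100 to 106203699), had 332 and 339.7 CPM in VLDLR_KO, 553 and 513 CPM in ROBO4_KO and 499, 541 and 522 CPM in WT before B. After B Pgk1 had 646, 483 and 603 CPM in VLDLR_KO, 459, 544 and 567 CPM in ROBO4_KO and 500.2 and 419.5 CPM in WT. It was low in the before-B VLDLR_KO pair, below all 13 other libraries, and overlapped WT after B. Pgk1 fell by 0.63 before B (SE 0.13, adjusted p = 0.00384) and differed by 0.33 after B (SE 0.13, adjusted p = 0.120), both on the log2 scale.

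Eno2, the neuronal enolase, was called after B alone, although its VLDLR_KO difference did not pass a test of dependence on the code form. It had 29.4 and 41.6 CPM in VLDLR_KO, 29.9 and 32.0 CPM in ROBO4_KO and 39.5, 36.7 and 42.6 CPM in WT before B. After B it had 20.4, 25.1 and 20.3 CPM in VLDLR_KO, 26.5, 21.7 and 16.5 CPM in ROBO4_KO and 33.3 and 39.5 CPM in WT. Both knockouts lay below WT after B, and Eno2 fell by 0.73 in VLDLR_KO on the log2 scale (SE 0.19, adjusted p = 0.0213). The ROBO4_KO minus WT value after B was -0.76 (SE 0.19, adjusted p = 0.0732). Without WT replicate 2, one of the pair with high Fos, the VLDLR_KO value was -0.61 (adjusted p = 0.213), and the call was also lost without WT replicate 1 or VLDLR_KO replicate 3 or 5. Eno3, the muscle enolase, was not called against WT.

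Pkm, pyruvate kinase, makes pyruvate at the last step. It had 932 and 1031 CPM in VLDLR_KO, 1178 and 1313 CPM in ROBO4_KO and 1252, 1239 and 1229 CPM in WT before B. After B it had 1619, 1559.8 and 1616 CPM in VLDLR_KO, 1658, 1775 and 1745 CPM in ROBO4_KO and 1649 and 1532 CPM in WT. Before B the VLDLR_KO pair was lowest, and after B VLDLR_KO lay between the WT libraries. Pkm fell by 0.34 before B (SE 0.09, adjusted p = 0.0114) and differed by 0.01 after B, on the log2 scale.

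Of the pyruvate and lactate genes, Pdk1 had the clearest change. Pdk1 is a kinase that shuts pyruvate dehydrogenase and is a known HIF target (chromosome 2, 71873213 to 71903858). It had 27.7 and 22.9 CPM in VLDLR_KO, 52.7 and 58.6 CPM in ROBO4_KO and 47.0, 47.8 and 42.9 CPM in WT before B. After B it had 56.5, 47.1 and 57.7 CPM in VLDLR_KO, 70.0, 69.9 and 70.2 CPM in ROBO4_KO and 62.4 and 60.7 CPM in WT. VLDLR_KO lay below WT in both forms with no overlap, by the most before B. Pdk1 fell by 0.86 before B (SE 0.11, adjusted p = 0.000170) and by 0.53 on the mean (SE 0.08, adjusted p = 0.000343), and differed by -0.20 after B (SE 0.11, adjusted p = 0.269), on the log2 scale. Pdk3, a related kinase, was not called against WT.

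Ldha, the lactate dehydrogenase subunit tied to lactate production, had 326 and 448 CPM in VLDLR_KO, 380.0 and 399 CPM in ROBO4_KO and 437, 394 and 442 CPM in WT before B. After B Ldha had 582, 664 and 609.9 CPM in VLDLR_KO, 600.4, 544 and 563 CPM in ROBO4_KO and 499 and 479 CPM in WT. VLDLR_KO straddled WT before B and lay above it after B, and Ldha was called in neither form (log2 fold change -0.13 and 0.34, adjusted p = 0.413 and 0.0856).

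Ldhb, the heart-type subunit, had 13.5 and 22.04 CPM in VLDLR_KO, 7.30 and 7.59 CPM in ROBO4_KO and 10.7, 6.97 and 8.78 CPM in WT before B. After B Ldhb had 16.5, 23.3 and 17.1 CPM in VLDLR_KO, 18.6, 14.9 and 12.8 CPM in ROBO4_KO and 17.4 and 16.7 CPM in WT. Before B the VLDLR_KO pair was above all libraries of that form, and after B the groups overlapped. The log2 fold change of Ldhb was 1.01 before B (SE 0.24, adjusted p = 0.00736), but 0.60 (adjusted p = 0.131) without VLDLR_KO replicate 2.

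Both lactate transporters rose in VLDLR_KO on the mean, and for neither did the difference between the forms pass the test (adjusted p = 0.226 for Slc16a3 and 0.0602 for Slc16a1). Slc16a3, the high-capacity exporter MCT4, had 33.0 and 48.7 CPM in VLDLR_KO, 26.5 and 28.4 CPM in ROBO4_KO and 27.6, 23.0 and 26.2 CPM in WT before B. After B it had 24.8, 24.1 and 24.9 CPM in VLDLR_KO, 23.5, 20.8 and 21.8 CPM in ROBO4_KO and 19.6 and 19.9 CPM in WT. VLDLR_KO was above WT without overlap in both forms, and Slc16a3 rose by a log2 fold change of 0.67 before B (SE 0.14, adjusted p = 0.00350) and 0.49 on the mean (SE 0.10, adjusted p = 0.00326). Without VLDLR_KO replicate 2 the before-B value was 0.36 (adjusted p = 0.0503).

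Slc16a1, the transporter MCT1, had 21.1 and 17.6 CPM in VLDLR_KO, 15.03 and 16.1 CPM in ROBO4_KO and 20.6, 16.8 and 17.0 CPM in WT before B. After B Slc16a1 had 42.2, 28.9 and 38.2 CPM in VLDLR_KO, 18.6, 21.6 and 23.8 CPM in ROBO4_KO and 19.1 and 22.2 CPM in WT. The after-B VLDLR_KO libraries were the 3 highest of the 15. Slc16a1 rose by a log2 fold change of 0.82 after B (SE 0.17, adjusted p = 0.00703), and without WT replicate 1 the value was 0.71 (adjusted p = 0.0995). Before B it was 0.09 (SE 0.17, adjusted p = 0.693).

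Ndrg1 led the other HIF targets. This gene, for a stress-responsive cytoplasmic protein induced by hypoxia (chromosome 15, 66929318 to 66969641), had 102 and 108 CPM in VLDLR_KO, 80.5 and 105 CPM in ROBO4_KO and 97.0, 101 and 108 CPM in WT before B. After B Ndrg1 had 34.2, 33.8 and 35.1 CPM in VLDLR_KO, 78.6, 73.8 and 66.001 CPM in ROBO4_KO and 98.3 and 106 CPM in WT. Before B all genotypes overlapped, and after B they separated in the order VLDLR_KO, ROBO4_KO, WT from low to high. Ndrg1 fell by 1.57 in VLDLR_KO after B (SE 0.11, adjusted p = 1.03e-06) and differed by 0.04 before B (SE 0.11, adjusted p = 0.784), on the log2 scale. The after-B call held in all 15 fits that left out 1 library.

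P4ha1 and P4ha2 encode catalytic subunits of the prolyl hydroxylase that matures collagen. P4ha1 had 141 and 125 CPM in VLDLR_KO, 107 and 113 CPM in ROBO4_KO and 113, 112 and 106 CPM in WT before B. After B P4ha1 had 132, 107 and 117 CPM in VLDLR_KO, 83.1, 82.8 and 89.1 CPM in ROBO4_KO and 89.7 and 89.0 CPM in WT. VLDLR_KO was the highest genotype in each form, and P4ha1 rose by a log2 fold change of 0.41 after B (SE 0.10, adjusted p = 0.0158) and 0.34 on the mean (SE 0.07, adjusted p = 0.00337). It was not called against WT before B. The after-B call was lost without WT replicate 1 or 2 or VLDLR_KO replicate 3, with values of 0.33 to 0.42.

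P4ha2 had 11.1 and 15.4 CPM in VLDLR_KO, 17.4 and 21.0 CPM in ROBO4_KO and 23.9, 17.4 and 22.0 CPM in WT before B. After B P4ha2 had 6.67, 4.35 and 6.21 CPM in VLDLR_KO, 4.23, 7.04 and 7.58 CPM in ROBO4_KO and 8.11 and 7.19 CPM in WT. VLDLR_KO lay below WT in each form, and P4ha2 fell by 0.54 on the mean (SE 0.18, adjusted p = 0.0408) on the log2 scale, a call lost in 10 of the 15 fits that left out 1 library (lowest -0.58, highest -0.43). On the mean, markers of fibroblasts and stroma moved the same way: of 10 tested, 0 were higher and 7 lower in VLDLR_KO than in WT. That compares with 12.4% higher and 13.6% lower of all genes. Before B 7 were lower, beside 15.6% of all genes, and after B 0 of the 10 markers were called. Their summed level was 4.96 to 33.1 CPM in VLDLR_KO and 107 to 308 CPM in WT before B, and 18.1 to 33.6 CPM in VLDLR_KO and 43.8 to 52.1 CPM in WT after B. Lum was at 0 in 14 of the 15 libraries, and the part of such cells in the P4ha2 result was not tested.

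Ero1l, an oxidase of protein folding in the endoplasmic reticulum, rose after B by a log2 fold change of 0.44 (SE 0.13, adjusted p = 0.0362), lost without WT replicate 1, 2, 3 or 4, ROBO4_KO replicate 4 or VLDLR_KO replicate 3 at values of 0.33 to 0.49. Bnip3, a mitophagy receptor, was not called against WT, at -0.22 before and -0.25 after B. Ankrd37, a small HIF target, ran from 0.159 to 2.38 CPM and was not called against WT.

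Oxygen-sensing members showed no call between VLDLR_KO and WT in either form. Hif1a, the oxygen-regulated subunit, had 129 and 63.3 CPM in VLDLR_KO, 132 and 114 CPM in ROBO4_KO and 118, 118 and 103 CPM in WT before B. After B Hif1a had 135, 113 and 120.0 CPM in VLDLR_KO, 101, 105 and 113 CPM in ROBO4_KO and 106 and 123 CPM in WT. A single low library, VLDLR_KO replicate 2, departed from a narrow range, and Arnt was also low there (38.9 CPM, against 68.1 CPM in VLDLR_KO replicate 1). The log2 fold change of Hif1a against WT was -0.06 on the mean (SE 0.15, adjusted p = 0.779), and that of Arnt was -0.10 (SE 0.12, adjusted p = 0.564).

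Egln3, a HIF-induced prolyl hydroxylase that marks HIF1A for destruction, had 1.04 and 1.49 CPM in VLDLR_KO, 1.23 and 1.81 CPM in ROBO4_KO and 1.66, 1.003 and 1.44 CPM in WT before B. After B Egln3 had 0.583, 0.390 and 0.265 CPM in VLDLR_KO, 0.167, 0.261 and 0.307 CPM in ROBO4_KO and 0.559 and 0.342 CPM in WT. Genotypes overlapped within each form, and every before-B library was above every after-B one. Egln1, the main oxygen sensor of this family, stayed within 49.6 to 63.8 CPM and was not called. Since HIF1A is controlled mainly through protein stability, these transcript levels do not measure its activity.

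The VLDLR_KO minus WT difference itself depended on the code form for 5 members, tested as its signed value before B minus that after B. These 5 of 39 (2 higher, 3 lower) compare with 14.5% of all genes (7.93% higher, 6.57% lower). For Slc2a6 the test gave 2.67 (SE 0.50, adjusted p = 0.00531), since it was higher in VLDLR_KO by 2.89 before B and by 0.22 after B. For Ndrg1 it gave 1.62 (SE 0.16, adjusted p = 7.14e-05), and the difference was the larger one after B, at -1.57, against 0.04 before B. Pdk1 at -0.66 (SE 0.16, adjusted p = 0.0172) and Pfkp at -0.65 (SE 0.14, adjusted p = 0.00897) had the larger decrease before B, at -0.86 and -0.68, against -0.20 and -0.03 after B. For Pgk1 the test gave -0.96 (SE 0.19, adjusted p = 0.00630), with -0.63 before B and 0.33 after B. Slc2a6, Ndrg1 and Pgk1 kept the call in all 15 fits that left out 1 library. Pfkp lost it without WT replicate 1, and Pdk1 without WT replicate 1 or 2. The count of members called also varied with the library left out, and the share of all genes called in those fits is not given here.

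**Figure D3:**
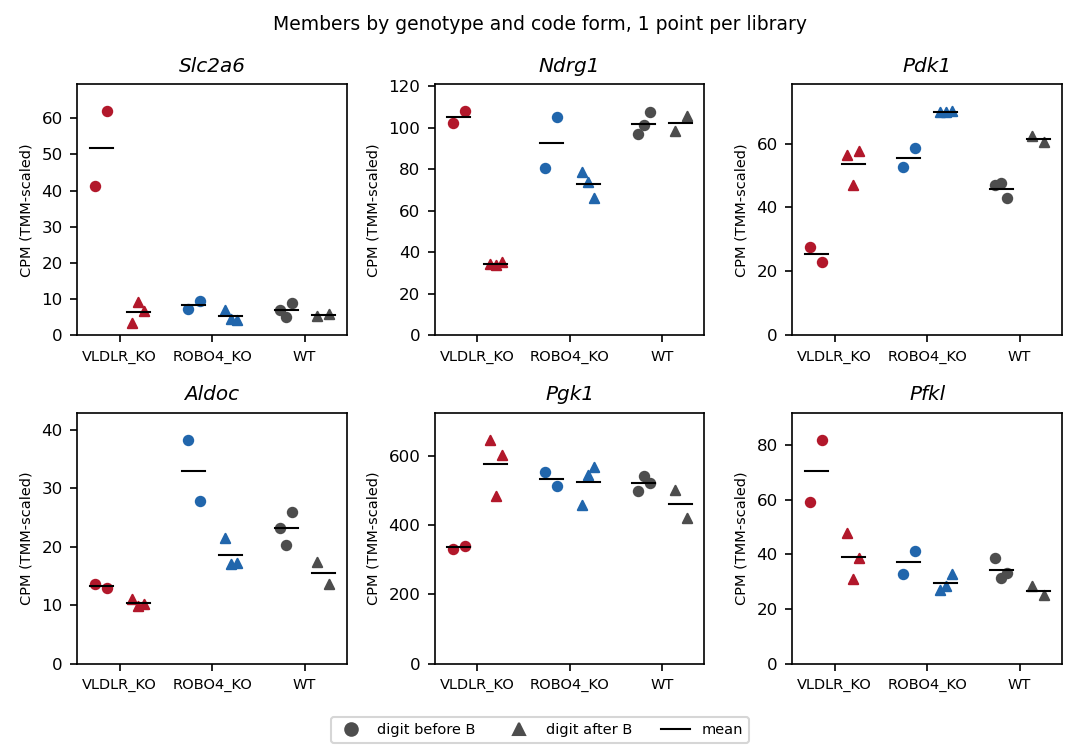
CPM (TMM-scaled, y axes from 0) of 6 members in every library, with VLDLR_KO left, ROBO4_KO in the middle and WT right, circles for digit before B, triangles for digit after B and black lines for means. Slc2a6 and Pfkl are high and Pgk1 and Pdk1 low in the before-B VLDLR_KO pair, Ndrg1 is low in after-B VLDLR_KO at 33.8 to 35.1 CPM, and Aldoc is low in both.

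The code form itself went with changes in many members. Between digit before B and digit after B, with the 3 genotypes weighted equally, 24 of 39 members differed, 12 higher and 12 lower, against 45.6% of all genes (23.2% higher, 22.4% lower). Every pyruvate and lactate gene was called, 1 higher and 5 lower, with log2 differences of -0.48 for Ldha (SE 0.07), -0.70 for Ldhb (SE 0.14), -0.61 for Pdk1 (SE 0.06), -0.67 for Pdk3 (SE 0.08), -0.52 for Slc16a1 (SE 0.10) and 0.47 for Slc16a3 (SE 0.08). Of the other HIF targets 4 of 6 were higher before B and none lower, with P4ha2 at 1.43 (SE 0.15), Ankrd37 at 1.23 (SE 0.36), Ndrg1 at 0.65 (SE 0.07) and P4ha1 at 0.28 (SE 0.06). The Ndrg1 value is a mean over genotypes that differ: VLDLR_KO had 102 and 108 CPM before B and 33.8 to 35.1 CPM after B, whereas WT had 97.0 to 108 CPM before B and 98.3 and 106 CPM after B. Egln3 had the largest difference of the 38 members with counts in every genotype, at 1.92 (SE 0.25, adjusted p = 5.71e-05), followed by P4ha2. Pkm was lower before B by -0.51 (SE 0.05, adjusted p = 5.41e-06), while Aldoc, Eno2, Eno3 and Pfkl were higher by 0.59, 0.45, 0.68 and 0.52.

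Other cell markers differed between the code forms as well. All 5 tested neutrophil markers and all 5 tested osteoclast markers were lower before B, and 5 of 10 fibroblast markers were higher, beside 23.2% higher and 22.4% lower of all genes. Summed neutrophil markers were 0.103 to 1.43 CPM before B and 4.51 to 16.3 CPM after B, with Elane at 0 in 12 libraries and Mpo at 0 in 11. Summed osteoclast markers were 632 to 1198 CPM before B and 1194 to 2372 CPM after B, most of it Atp6v0d2, with Calcr at 0 in 14 libraries. Their part in the members' differences was not tested.

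**Figure D4:**
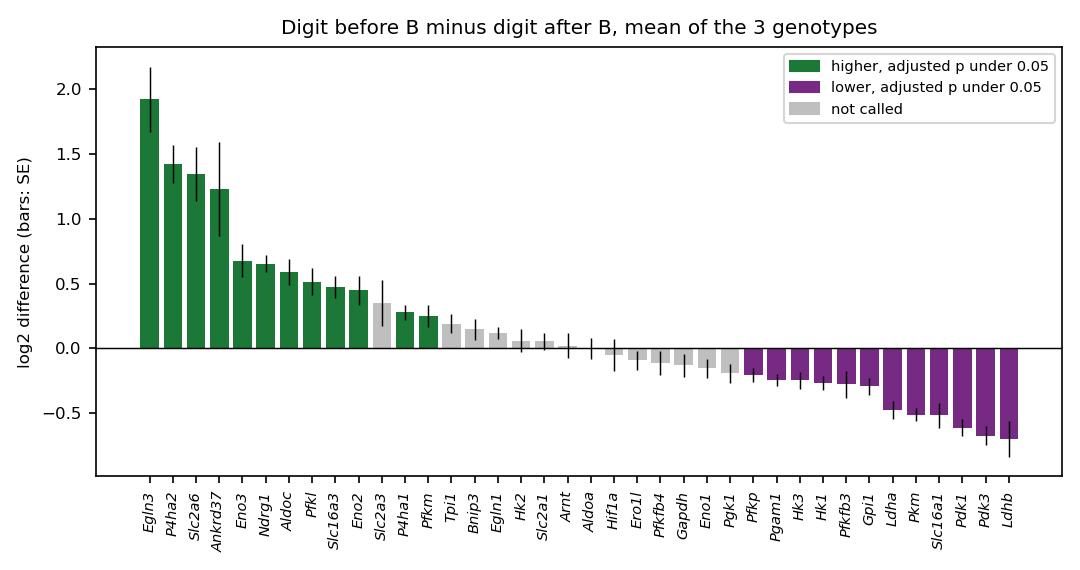
Log2 difference of digit before B minus digit after B, averaged over the 3 genotypes (y axis, error bars are standard errors), for 38 members in falling order, coloured by direction where the adjusted p was under 0.05. The bars run from Egln3 at 1.92 to Ldhb at -0.70.

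Against ROBO4_KO, which shares the VLDLR_KO libraries with the comparison above, 19 of 39 members differed on the mean, 11 higher and 8 lower, beside 26.3% of all genes (13.2% higher, 13.1% lower). Aldoc fell by 1.08 (SE 0.12, adjusted p = 3.70e-05), Pdk1 by 0.76 (SE 0.08, adjusted p = 1.58e-05) and Eno1 by 0.57 (SE 0.09, adjusted p = 0.000562) on the log2 scale. Slc2a6 rose by 1.47 (SE 0.26, adjusted p = 0.00119) and Ldhb by 0.78 (SE 0.17, adjusted p = 0.00558). Hk1, Hk2 and Ero1l were higher (0.20, 0.52 and 0.38) and Pkm, Bnip3 and Ankrd37 lower (-0.23, -0.39 and -1.59) than in ROBO4_KO, and these 6 were not called against WT. Hk2 alone of these 6 kept its call in all 15 fits that left out 1 library. Without ROBO4_KO replicate 2 the calls of Ero1l (0.32, adjusted p = 0.0510), Pkm (-0.19, adjusted p = 0.0898), Bnip3 (-0.34, adjusted p = 0.0570), Ankrd37 (-1.48, adjusted p = 0.0622) and Hk1 (0.23, adjusted p = 0.0590) were lost. Hk1 was also lost without ROBO4_KO replicate 1, 3 or 4 or VLDLR_KO replicate 1, 4 or 5, and Ankrd37 without VLDLR_KO replicate 2 or 5. Within before-B libraries 12 members differed, 6 higher and 6 lower, beside 29.6% of all genes (15.9% higher, 13.7% lower). Within after-B libraries 12 did, 8 higher and 4 lower, beside 11.9% (5.59% higher, 6.34% lower). Eno1b was among the members called higher on the mean and in each form. Its call follows from how it passed the filter and adds no support to these counts. The sum of Eno1 and Eno1b was higher than in ROBO4_KO by 0.34 on the mean (SE 0.10, adjusted p = 0.0195), and was not called in either form alone, at 0.40 before B (adjusted p = 0.0577) and 0.29 after B (adjusted p = 0.151).

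Few calls separated ROBO4_KO from WT in these genes. With edgeR, 0 of 39 members differed on the mean, while 1.63% of all genes did (0.607% higher, 1.02% lower). At an unadjusted p under 0.05 there were 9 members, beside 1124 of the 12198 genes. DESeq2 called 2 members, beside 319 genes in all. The member nearest to a call was Eno2 at -0.56 (SE 0.13, adjusted p = 0.0607), followed by Ndrg1 at -0.31 (SE 0.08, adjusted p = 0.0856). Before B edgeR called 0 members (0.328% of all genes, 0.180% higher and 0.148% lower). There 2 members had an unadjusted p under 0.05, beside 586 genes in all, and DESeq2 called 0 members, beside 110 genes. After B edgeR called Ndrg1 (1.59% of all genes, 0.369% higher and 1.22% lower), which fell by 0.49 on the log2 scale (SE 0.11, adjusted p = 0.0478), and the call was lost without any 1 of the WT replicates, without ROBO4_KO replicate 4 or 5 or without VLDLR_KO replicate 3, 4 or 5. No member's ROBO4_KO difference depended on the code form in edgeR (0.385% of all genes did, 0.377% higher and 0.00820% lower). For that test 1 member had an unadjusted p under 0.05, beside 624 genes in all, and DESeq2 called 0 members, beside 89 genes.

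Transcripts of the members were read from the deposited transcript table, in which 113 of their 135 transcripts were tested among 36240. On the mean of both forms, VLDLR_KO minus WT gave 10 called transcripts, with 3 higher and 7 lower, against 4.06% of all transcripts (1.39% higher, 2.67% lower). Before B there were 13, 3 higher and 10 lower, beside 4.20% (1.68% higher, 2.52% lower), and after B 3, 1 higher and 2 lower, beside 1.64% (0.538% higher, 1.10% lower). Against ROBO4_KO 12 differed on the mean, 4 higher and 8 lower, beside 4.21% (1.51% higher, 2.70% lower). ROBO4_KO minus WT gave 0 in edgeR, beside 0.235% of all transcripts called (0.0717% higher, 0.163% lower), and other tools were not run on transcripts. At an unadjusted p under 0.05 there were 9 member transcripts, and all transcripts were not counted at that threshold. Between code forms 20 differed, 6 higher and 14 lower, beside 9.66% (4.22% higher, 5.45% lower). Pkm transcript XM_011242673.1, a predicted RefSeq model, made up 0.265% and 0% of Pkm counts in before-B VLDLR_KO libraries and 0.372%, 0.471% and 0.336% in after-B ones. The same transcript made up 3.84% to 6.67% of Pkm counts in ROBO4_KO and 4.68% to 8.18% in WT, with no overlap. Its log2 fold change against WT was -4.98 (SE 0.59, adjusted p = 0.000522). Pkm transcripts NM_011099.3 and NM_001253883.1, the curated models, were not called, at -0.09 and 0.00. Pdk1 transcript XM_017317590.1 had 3.001 and 1.74 CPM in VLDLR_KO, 15.9 and 23.8 CPM in ROBO4_KO and 16.8, 15.9 and 15.5 CPM in WT before B. On the mean of both forms it fell by 1.61 against WT on the log2 scale (SE 0.17, adjusted p = 0.000184). Its after-B values are not printed here, and Pdk1 as a gene fell more before B than after B. Counts per transcript were divided by the authors' software between overlapping models, so a share carries that uncertainty.

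**Figure D5:**
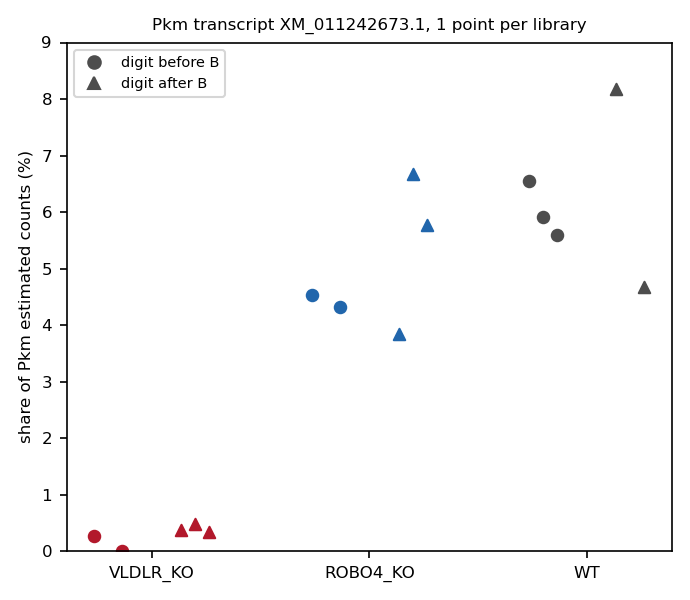
Share of Pkm estimated counts assigned to transcript XM_011242673.1 (y axis, percent) in each library, with VLDLR_KO left, ROBO4_KO in the middle and WT right, circles for digit before B and triangles for digit after B. VLDLR_KO libraries sit at or under 0.471% and all others at or above 3.84%.

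Other genes of the pathways were read from 9 further lists, with counts on the mean of VLDLR_KO minus WT, where 26.0% of all genes were called (12.4% higher, 13.6% lower). Of 11 tested HIF pathway genes 2 were higher and 3 lower: the partner Arnt2 (-1.52), the HIF antagonist Cited2 (-0.60) and the asparaginyl hydroxylase Hif1an (-0.24) fell, and the prolyl hydroxylase Egln2 rose (0.38). Of 32 other HIF targets 0 were higher and 7 lower, which for both directions together is near the share of all genes, led by Ptgs2, the inducible prostaglandin synthase (-4.12), the collagen cross-linkers Loxl2 (-2.84) and Lox (-1.13), and the lipid droplet gene Hilpda (-1.10). Ptgs2 averaged 0.917 ± 0.35 CPM in VLDLR_KO and 45.4 ± 10.3 CPM in WT after B, and 0.592 ± 0.16 CPM in VLDLR_KO and 3.69 ± 0.81 CPM in WT before B (SD, n = 3, 2, 2 and 3 in that order). The WT libraries with high Ptgs2 were those with high Fos. Lox averaged 6.90 CPM in VLDLR_KO and 36.3 CPM in WT before B, and 8.96 CPM in VLDLR_KO and 8.10 CPM in WT after B. The stromal marker sums given with P4ha2 moved with Lox before B, and their part was not tested.

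Entry of pyruvate into mitochondria and the citric acid cycle showed single changes, in shares near the 26.0% of all genes called. Of 18 tested genes of pyruvate handling 1 was higher and 4 lower, with the pyruvate carrier subunit Mpc1 at -0.90 (SE 0.08), Pdk4 at -2.12 (SE 0.53), Ldhd at -1.33 (SE 0.32) and malic enzyme Me1 at 0.95 (SE 0.18). Of 20 citric acid cycle genes 3 were higher and 2 lower, with fumarase Fh1 and isocitrate dehydrogenase Idh2 both at 0.50, and the succinate dehydrogenase subunits Sdhb at 0.42 and Sdhc at -0.39. Of 12 pentose phosphate genes 1 was higher and 2 lower, with Dera at -0.83, Rpia at 0.58 and Rpe at -0.31. Between the code forms, 1 pentose phosphate gene was higher and 10 of the 12 were lower before B, where 23.2% of all genes were higher and 22.4% lower.

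Of 12 genes of hexose transport and entry 1 was higher and 2 lower, with the urate and hexose transporter Slc2a9 at -0.64, Pgm2 at -0.46 and Pmm2 at 0.35. Of 15 genes of gluconeogenesis and side branches 2 were higher and 2 lower, with Gpd1 at -0.89, Gfpt1 at -0.52 and G6pc3 at 0.49. Fbp1 averaged 0.558 CPM in VLDLR_KO and 0.0280 CPM in WT after B. That WT level is under the floor of 3 counts per library (at most 0.171 CPM in WT), so the size of the Fbp1 change was not settled. Of 16 glycogen genes 1 was higher and 3 lower, with Gyg at -0.37, Gaa at 0.36, Ugp2 at -0.30 and Phka2 at -0.24. Of 20 regulators of glycolysis 7 were higher and 0 lower, beside 12.4% higher and 13.6% lower of all genes, with Ppargc1b at 0.69, Trp53 at 0.47, Sirt6 at 0.37 and the AMP kinase subunit Prkab1 at 0.32. Median log2 fold changes of the 9 lists lay between -0.13 and 0.13, against 0.01 over all tested genes.

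In the authors' deposited table of DESeq2 results, 11 of 39 members had a q-value under 0.05 between VLDLR_KO and WT before B (5 higher and 6 lower in the knockout), beside 2326 of 15536 genes with a q-value there, or 15% (6.78% higher, 8.19% lower). After B the authors' deposited table listed 11 (7 higher and 4 lower), beside 12.2% of all genes (6.18% higher, 6.03% lower). Eno1b was among the members higher in VLDLR_KO in both forms. With 0 counts in WT, it adds no support to these counts. Between ROBO4_KO and WT the authors' deposited table listed 1 of 38 members before B, beside 1.41% of all genes (0.766% higher, 0.644% lower), and 2 of 38 after B, beside 2.30% (0.518% higher, 1.78% lower), all lower in the knockout.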

How the data were processed

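Libraries were made from total RNA with a SMARTER mRNA kit and sequenced as paired ends on a BGISEQ-500 instrument, per the labels' protocols. HISAT, Bowtie2 and GRCm38.p6 are named in the submitters' processing notes, with versions and strand setting not given in the sources used here. The deposited gene and transcript tables hold estimated counts, of which 92.6% were whole per gene (within 0.005), and FPKM values, a unit inferred from the values against count and length. The authors' log2 fold changes are WT over knockout, and their q-values are named as DESeq2 output per the file headers. A second deposited gene table held the same values and was not used.

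Estimated counts were rounded to whole numbers and fitted with edgeR 4.0.16 (R 4.3.3; TMM, filterByExpr, quasi-likelihood F test, two-sided) with genotype by code form cell means over all 15 libraries. P-values were Benjamini-Hochberg adjusted over 12198 genes or 36240 transcripts, with a threshold of 0.05. Library depth was 18132866 to 19005966 estimated counts. The sum of Eno1 and Eno1b replaced both genes in a separate fit. The main fit was tested on simulated counts with no code-form effect and fewer changed genes than here, a simpler setting than these data. Alternatives were RLE scaling, no filter, DESeq2 1.42.0, limma 3.58.1 on log2(FPKM + 1) for genes at FPKM 1 or more in 2 libraries, each form alone, code form as covariate or ignored, a block by code digit, and each library left out.

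Members, pathway lists and marker lists were chosen with earlier results of these data known. Values in every library are printed for up to 14 members called on the mean, for members whose difference depended on the code form, and for Eno1, Eno1b, Gapdh, Hk2, Pfkfb3, Ldha, Slc2a1, Pkm, Hif1a and Egln3. Up to 4 called genes per further list are named, by size of change. Promoter windows are from RefSeq.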

Additional observations from a re-analysis of the deposited data

Results flagged for a closer look

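In 3 of 115 groups tested, 1 library stood apart from the rest of its group. Each group held the 5 libraries of 1 genotype for 1 member, with both code forms together. The limit is set to be passed in about 1 in 20 groups drawn from a single normal spread. Groups that mix the forms and share libraries need not follow that rate. Hk3 was at 648 CPM in ROBO4_KO replicate 3, with the other ROBO4_KO libraries at 539 to 564 CPM. Tpi1 was at 389.7 CPM in VLDLR_KO replicate 2, with the other VLDLR_KO libraries at 259.8 to 277 CPM. Eno1 was at 240.0 CPM in VLDLR_KO replicate 1, with the others at 318 to 345 CPM.

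The VLDLR_KO minus WT difference itself differed between the code forms for 5 members, by an interaction test in edgeR. Before B minus after B, on the log2 scale, it was 2.67 for Slc2a6, 1.62 for Ndrg1, -0.96 for Pgk1, -0.66 for Pdk1 and -0.65 for Pfkp.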

How the results depend on the processing

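Counts of members called changed most with the handling of the code form. For VLDLR_KO minus WT on the mean (16 members), 3 were called with the code form ignored and 6 with a replicate block by code digit, and against ROBO4_KO (19 members) 8 were called with the form ignored. Whether the digits pair the libraries was not settled: 4 of 12 same-digit pairs correlated over 0.1, with a range of -0.47 to 0.31. These correlations use deviations from the mean of each genotype and form. In a group of 2 libraries such deviations mirror each other, so the check cannot exclude pairing. DESeq2 called 14 members for VLDLR_KO minus WT after B, beside 2100 genes in all. DESeq2 and limma on FPKM each called 10 members whose VLDLR_KO difference depended on the form. With DESeq2 this compares with 2471 genes in all, and the count over all genes is not given here for limma. For ROBO4_KO minus WT after B, RLE scaling and no filter each called 0 and DESeq2 called 2. For its mean, no filter called 1, limma on FPKM 1 and DESeq2 2. With the form as a covariate, 4 member transcripts were called against WT (10 otherwise) and 6 against ROBO4_KO (12 otherwise). Summing Eno1 with Eno1b reversed Eno1 to 0.40, 0.44 and 0.42 against WT (before B, after B, mean) and to 0.40, 0.29 and 0.34 against ROBO4_KO, of which 0.40 and 0.29 did not pass the test. The cause of the other changes was not tested.

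Where leaving out 1 library left a single library in a group, it was assumed to vary like the others. The ranges of members that follow are given without the share of all genes called in the same fits. They do not show whether members varied more than other genes. Leaving out 1 library gave 12 to 20 members for VLDLR_KO minus WT before B, 2 to 15 after B and 12 to 20 on the mean. Against ROBO4_KO it gave 8 to 19 before B, 10 to 13 after B and 14 to 23 on the mean. ROBO4_KO minus WT gave 0 to 2 after B and 0 to 1 on the mean, the interaction with the form 3 to 18 and the form itself 22 to 28. Over all genes, VLDLR_KO minus WT called 2442 before B with that form fitted alone (4044 otherwise), and on the mean 2015 with the form as covariate, 1139 with it ignored and 1524 with the replicate block (3170 otherwise). Against ROBO4_KO it called 1500 before B with the form alone (3608), and on the mean 1901, 910 and 1151 under those 3 settings (3214). ROBO4_KO minus WT called 110 with DESeq2 and 20 with the form alone before B (40), 326 with DESeq2 after B (194), and on the mean 319 with DESeq2 and 81, 41 and 51 under those 3 settings (199). Its interaction with the form called 89 with DESeq2 (47). Of the single-gene alternatives 2041 kept direction and call, 199 lost the call and 6 reversed. Low counts limit Egln3 and Ankrd37 most, and each genotype has only 2 or 3 libraries per form.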
